A study of Homo sapiens with 8 samples.

Results

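Genes of the interferon response and of the TRIM family were followed across 4 human multiple myeloma cell lines and a knockdown of MMSET I. The members were the genes whose single platform symbol begins as a guanylate-binding protein gene (GBP), an IFI, IFIT or IFITM gene, OAS1 to OAS3 or OASL, an ISG1 or ISG2 symbol, MX, IRF, STAT, TRIM or HLA gene. The rule used symbols and no measured value. It found 95 of the 14812 genes with a named row: 61 TRIM, 8 IRF, 8 IFI or IFIT, 6 IFITM, 4 STAT, 3 GBP and 1 HLA gene, besides ISG15, ISG20, MX2 and OASL. Several well-known relatives, among them MX1, OAS1, GBP1 and the classical HLA genes, were not analysed here.

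MMSET I, a shorter protein made from NSD2 (a histone methyltransferase gene), was knocked down in KMS11, KMS18, KMS34 and OPM2, which all carry the t(4;14) translocation. The 4 ShMI arrays (1 per line, short hairpin RNA against MMSET I, named ShMI in the titles) were set against 4 control arrays (1 per line), 8 in all. Every culture, controls included, had been infected with lentivirus in 8 µg/mL polybrene and was harvested 48 h after the medium change. The series text gives 72 h of hairpin treatment and names KMS11 alone. What the control virus carried and which hairpin was used are not stated in the labels, and each line had 1 array per condition. RNA was read on Affymetrix Human Gene 2.0 ST arrays, on which a row sums up the probes along 1 gene.

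Interferons bind cell surface receptors whose JAK1, JAK2 and TYK2 kinases phosphorylate STAT proteins. Type I interferon leads to a complex with IRF9 on the interferon-stimulated response element (ISRE), and interferon gamma acts through the gamma-activated site (GAS). The induced genes make antiviral proteins such as the IFITs, which bind foreign RNA, the IFITMs, which hinder virus entry, and the GBPs, large GTPases that attack pathogens inside cells. TRIM proteins are mostly RING-type ubiquitin ligases, of which some act in antiviral signalling and others in chromatin, muscle or the cytoskeleton. In plasma cells and myeloma IRF4 is a master transcription factor on which the cells depend, and STAT3 carries the signal of the growth factor interleukin 6.

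NSD2 had ShMI and control intensities of 728 and 814 in OPM2, 677 and 744 in KMS34, 670.0 and 733 in KMS11 and 549 and 679.9 in KMS18, a log2 difference of -0.18 (limma, adjusted p = 0.472). Its row covers the whole gene, so it is a weak check of a knockdown of the short isoform. Across tested genes, r was 0.991 to 0.993 for the 2 arrays of a line and 0.880 to 0.915 for arrays from unlike lines. The 6 plasma cell markers in the table, among them SDC1, XBP1 and the member IRF4, summed to 7755 to 11187 on ShMI arrays and 8038 to 10795 on control arrays, and CD38 was lowest in KMS11 (83.2 with ShMI, 50.6 in control). The myeloid markers CD14 and LYZ lay at 28.2 to 38.3 on ShMI arrays and 32.3 to 39.2 on control arrays, under the brightness limit used below. The other 2 myeloid markers in the table lay above it. CSF1R lay at 66.8 to 85.4 on ShMI arrays and 77.996 to 86.6 on control arrays. CD68 lay at 88.2 to 115 on ShMI arrays and 92.4 to 119 on control arrays. The 2 B cell markers and 3 T and NK cell markers in the table passed the limit as means. ShMI and control intensities were 58.999 to 88.3 and 60.7 to 91.6 for PAX5 and 44.1 to 55.999 and 46.1 to 55.5 for CD22. For CD8A they were 100.4 to 137 and 88.2 to 136, and for NKG7 82.6 to 90.03 and 68.04 to 98.2. For GNLY they were 48.2 to 72.1 and 42.2 to 59.2. A mean above the limit is thus not by itself a sign of expression. In limma's moderated F test between lines, PAX5, CD22, CD8A and GNLY passed (adjusted p = 0.000514, 0.0389, 0.00221 and 0.00335), and NKG7 did not (0.193). Of the myeloid markers CD68 passed (0.0114) and CSF1R did not (0.107). Nor is a passed F test at such levels by itself a sign of expression. Per-line medians of the tested genes differed slightly in the deposited values, with KMS11 0.106 log2 units above OPM2. Medians over all rows ran the other way, with ShMI and control at 49.3 and 49.9 in KMS11 and 53.04 and 53.07 in OPM2. The offset thus varied with brightness, and no single shift applies to every KMS11 over OPM2 ratio.

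Members differed between lines about as often as genes in general. Of the 95, 72 lay above the brightness limit (intensity 46.7, the 25th percentile of mean log2 values over named genes) and were tested, and 23 (24.2%) lay under it. In limma's moderated F test 56 of 72 (77.8%) passed at an adjusted p under 0.05, against 75.7% of all 11109 tested genes. The line means of 20 members (27.8%) spanned at least 2-fold, against 18.8% of all tested genes, and the median span was 0.597 log2 units, against 0.516. KMS34 was the highest line in 25 of the 72 (34.7%, against 23.1% of all tested genes) and the lowest in 6 (8.33%, against 21.4%). OPM2 was the lowest in 24 (33.3%, against 23.8%) and KMS11 in 27 (37.5%, against 29.3%). The 72 were tested because they were bright on average over all 8 arrays, so these counts do not speak for the 23 dimmer members.

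Pairwise contrasts between lines (limma, adjusted over all genes and the 6 pairs together) were read for neighbours in the order of levels. Between KMS11 and KMS18 33 of 72 members passed, against 55.3% of all tested genes, and between KMS11 and KMS34 36, against 43.1%. The count was 40 for KMS11 and OPM2 (against 53.5%), 35 for KMS18 and KMS34 (against 47.7%), 38 for KMS18 and OPM2 (against 40.2%) and 40 for KMS34 and OPM2 (against 49.7%). In 14 of 72 members (19.4%) OPM2 was lowest and passed against the next line, as it did in 9.61% of all tested genes. KMS11 stood highest past the next line in 8 members, against 12.5% of all tested genes, and KMS34 in 10, against 9.01%. The spread behind these tests is that of the 4 knockdown differences, since the 2 arrays of a line differ in treatment, and no line has a second culture pair. In whole cultures, fewer expressing cells and less RNA per cell cannot be told apart.

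Several classical interferon-induced genes were dim in all lines. Of 17 such members, 7 lay under the brightness limit: GBP4, GBP5, IFI44, IFI44L, IFIT1, IFIT2 and IFIT3. By its definition 25% of all named genes lay under this limit. Their intensities were 21.4 to 60.1 on ShMI arrays and 20.9 to 50.05 on control arrays. IFIT1, an RNA-binding antiviral protein gene, had ShMI and control intensities of 29.01 and 29.3 in KMS11, 28.8 and 25.3 in KMS34, 24.3 and 25.9 in KMS18 and 24.6 and 25.4 in OPM2. IFI44L, a marker gene of type I interferon exposure, had ShMI and control intensities of 28.7 and 26.5 in KMS34, 26.4 and 26.9 in OPM2, 27.3 and 25.9 in KMS11 and 25.6 and 25.4 in KMS18. Both genes thus stayed under the limit in all lines and in both conditions. GBP5, a gene induced by interferon gamma, was the exception in 1 line, with ShMI and control intensities of 60.1 and 50.05 in KMS34, 29.1 and 33.04 in KMS18, 30.1 and 30.8 in OPM2 and 26.6 and 29.4 in KMS11. It was above the limit on both KMS34 arrays and under it on the other 6. No detection calls were used, so it is not stated whether the dim genes lay above background.

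The promoters of many of these genes hold the response element. RefSeq promoter windows (GRCh38.p14, 250 bases before to 50 after a start site) were matched by gene ID for 70 of the 95 members and searched on both strands for the ISRE core GAAANNGAAA, whose other strand reads TTTCNNTTTC. Of the 70, 20 held it (28.6%), against 3.89% of the 10736 named genes with a window (3.57% of all 35116 windows), and among the interferon-induced members 11 of 12 did. Bright and dim members both held it: 7 of the 20 (35.0%) lay under the brightness limit, against 9 of the 50 without it (18.0%). Among all named genes with a window, 30.4% of those with the core and 20.1% of those without it were under the limit. The stretches of 30 bases below are shown because they place the same element in dim genes (IFIT1, IFIT3) and in brighter ones. Each runs 5′ to 3′ on the gene's strand, with the matches in capitals, which overlap in ISG15 and TRIM21.
ISG15: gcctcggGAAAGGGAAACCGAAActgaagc
IFIT1: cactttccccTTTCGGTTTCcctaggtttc
IFIT3: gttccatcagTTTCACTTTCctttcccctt
IFIT5: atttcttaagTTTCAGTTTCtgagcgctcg
GBP3: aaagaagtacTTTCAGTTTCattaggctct
IFITM1: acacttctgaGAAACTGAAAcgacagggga
IFITM3: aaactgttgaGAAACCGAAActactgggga
TRIM14: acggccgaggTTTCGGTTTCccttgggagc
TRIM21: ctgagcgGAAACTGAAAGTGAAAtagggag
They lie at chr1:1013377-1013406 (plus strand), chr10:89392510-89392539 (plus), chr10:89332468-89332497 (plus), chr10:89414554-89414583 (plus), chr1:89022845-89022874 (minus), chr11:314024-314053 (plus), chr11:320876-320905 (minus), chr9:98119229-98119258 (minus) and chr11:4393663-4393692 (minus). IFIT3 has another window with matches, and the windows shown for IFIT1, IFIT3, IFIT5, IFITM1 and IFITM3 hold further matches outside the printed bases. A match is a description of the letters and not a measured binding site.

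**Figure D1:**
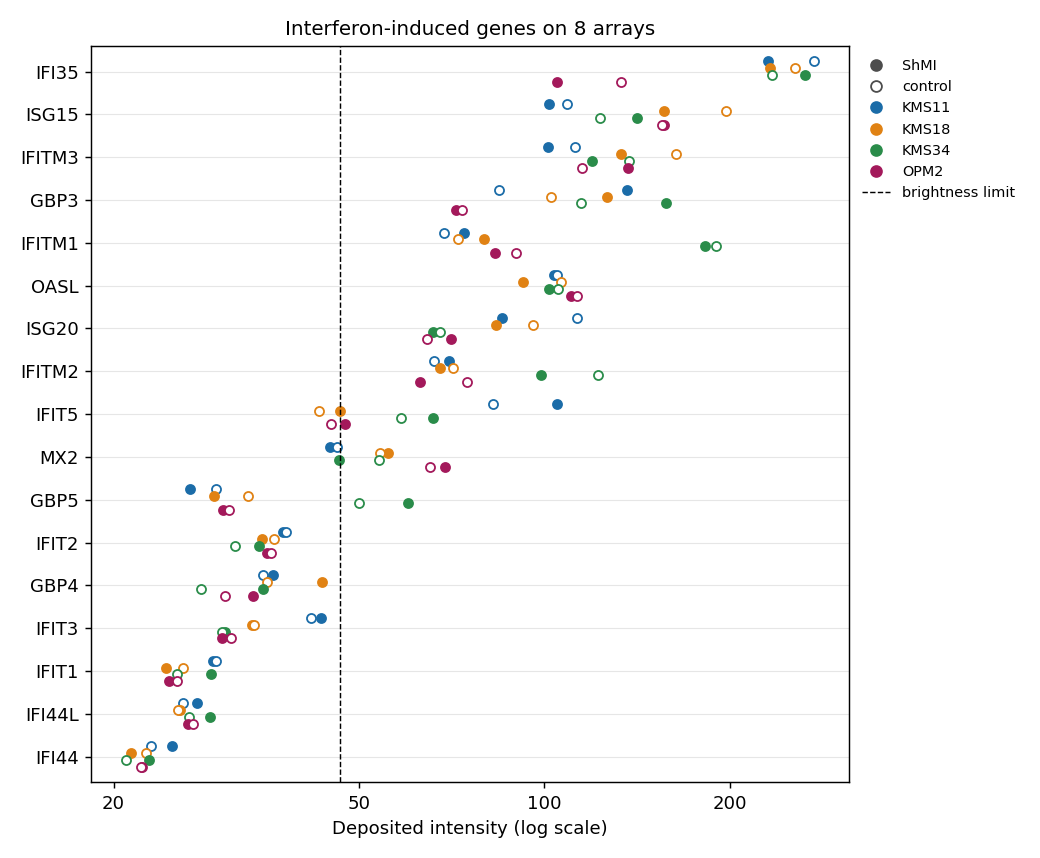
Deposited intensity (log axis) of the 17 interferon-induced members on 8 arrays, with filled points for ShMI, open points for control and a colour for each line; the dashed line is the brightness limit of 46.7. The lowest 7 genes lie left of the limit except for GBP5 in KMS34, and the filled and open points of a line mostly lie close together.

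In all, 10 interferon-induced members were bright enough to be tested, and 9 of them passed the F test (against 75.7% of all tested genes). IFI35, an interferon-induced leucine zipper protein gene, had ShMI and control intensities of 231 and 274 in KMS11, 265 and 234 in KMS34, 232 and 255 in KMS18 and 105 and 133 in OPM2. OPM2 lay 2.06-fold below the next line (limma pairwise, adjusted p = 1.34e-05), while the other lines did not pass against their neighbours. IFIT5, the IFIT relative that binds RNA with 5′ phosphates, had ShMI and control intensities of 105 and 82.5 in KMS11, 65.9 and 58.6 in KMS34, 47.5 and 45.1 in OPM2 and 46.6 and 43.1 in KMS18. KMS11 stood 1.5-fold above KMS34 (adjusted p = 0.000287), and KMS34 above OPM2 (adjusted p = 0.00272). The OPM2 and KMS18 arrays lay within a few units of the limit. ISG15, the ubiquitin-like modifier gene, had ShMI and control intensities of 156 and 197 in KMS18, 156 and 155 in OPM2, 141 and 123 in KMS34 and 102 and 109 in KMS11. KMS11 was lowest and passed against KMS34 (adjusted p = 0.0359). The B cell marker PAX5 and the T and NK cell marker GNLY had the same line order, though no neighbouring lines passed for them. GBP3, a guanylate-binding protein gene, was highest in KMS34 and lowest in OPM2, 1.47-fold below KMS11 (adjusted p = 0.00497). The margin differed by condition: KMS11 and OPM2 lay at 136 and 71.9 on ShMI arrays and 84.4 and 73.6 on control arrays. All 8 values of GBP3 are given with the knockdown.

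IFITM1, a cell surface restriction factor gene, had ShMI and control intensities of 182 and 189.9 in KMS34, 83.3 and 89.96 in OPM2, 79.9 and 72.4 in KMS18 and 74.1 and 68.6 in KMS11. Both KMS34 arrays were above all other arrays, 2.15-fold over OPM2 (limma pairwise, adjusted p = 1.43e-06), and the other lines did not pass against their neighbours. IFITM2, found on endosomes, was ordered with KMS34 on top as well, at ShMI and control intensities of 98.6 and 122 in KMS34, 67.6 and 70.97 in KMS18, 62.8 and 74.998 in OPM2 and 70.04 and 66.2 in KMS11 (adjusted p = 0.00024 for KMS34 against KMS18). IFITM3, the main barrier to influenza virus among the 3, had ShMI and control intensities of 133 and 163 in KMS18, 119 and 137 in KMS34, 137 and 115 in OPM2 and 101 and 112 in KMS11. For IFITM3 the F test passed (adjusted p = 0.0238) but none of the neighbouring lines did. These 3 genes are close paralogs in 1 cluster, so their probes may share signal. Of the relatives, IFITM10 was highest in KMS18 at 118 with ShMI and 119 in control, and the bone gene IFITM5 and the pseudogene IFITM4P did not pass (adjusted p = 0.799 and 0.36).

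ISG20, an exonuclease gene whose product degrades viral RNA, had ShMI and control intensities of 85.4 and 113 in KMS11, 83.4 and 95.96 in KMS18, 70.6 and 64.4 in OPM2 and 66.1 and 67.7 in KMS34. The upper pair of lines, KMS11 and KMS18, stood above OPM2 (limma pairwise, adjusted p = 0.0126 for KMS18 against OPM2). MX2, a nuclear pore GTPase that restricts HIV, had ShMI and control intensities of 68.9 and 65.2 in OPM2, 55.7 and 54.1 in KMS18, 46.4 and 53.98 in KMS34 and 44.8 and 46.1 in KMS11. OPM2 stood 1.22-fold above KMS18 (adjusted p = 0.0276), and the KMS11 values lay just under the brightness limit. OASL, an oligoadenylate synthetase relative that acts on RIG-I, lay at 92.3 to 111 on ShMI arrays and 105 to 113 on control arrays and did not pass (adjusted p = 0.361).

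**Figure D2:**
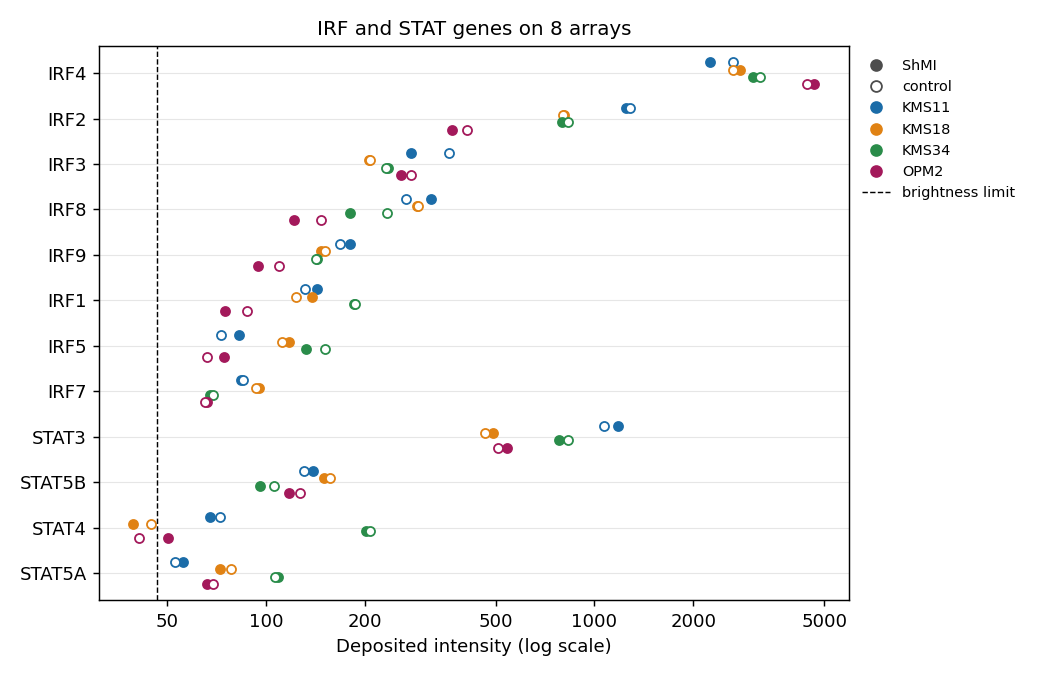
Deposited intensity (log axis) of the 8 IRF and 4 STAT members on 8 arrays, with filled points for ShMI, open points for control and a colour for each line; the dashed line is the brightness limit. OPM2 is the rightmost line for IRF4 and the leftmost for IRF1, IRF2, IRF7, IRF8 and IRF9. For IRF5 it is leftmost by its mean only, as its ShMI point lies right of the KMS11 control point.

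OPM2 stood at opposite ends for IRF4 and for 6 other IRF genes. All 8 measured IRF genes passed the F test (against 75.7% of all tested genes), and OPM2 was the lowest line in 6 of them (against 23.8%). The margin to the next line passed for 4, IRF1, IRF2, IRF8 and IRF9 (against 9.61%). IRF4, the plasma cell master regulator, had ShMI and control intensities of 4673 and 4442 in OPM2, 3032 and 3186 in KMS34, 2772 and 2642 in KMS18 and 2255 and 2639.8 in KMS11. It was the brightest member and stood highest in OPM2, 1.47-fold over KMS34 (limma pairwise, adjusted p = 0.000576). IRF2, a repressor at interferon-response promoters, had ShMI and control intensities of 1249 and 1284 in KMS11, 797 and 828 in KMS34, 806 and 805 in KMS18 and 367 and 408 in OPM2. KMS11 stood 1.56-fold above KMS34 (adjusted p = 7.14e-05), KMS34 and KMS18 did not differ beyond their spread (adjusted p = 0.922), and OPM2 lay 2.08-fold below KMS18 (adjusted p = 1.01e-06). IRF1, the activator that counters IRF2, had ShMI and control intensities of 185 and 186 in KMS34, 143 and 132 in KMS11, 138 and 123 in KMS18 and 75.3 and 87.7 in OPM2. Both OPM2 arrays lay below all others, 1.61-fold under KMS18 (adjusted p = 0.00017).

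IRF8, a lymphoid and myeloid factor that shares binding partners with IRF4, had ShMI and control intensities of 318 and 266 in KMS11, 288 and 290.2 in KMS18, 180.2 and 234 in KMS34 and 122 and 147 in OPM2. OPM2 lay below KMS34 (limma pairwise, adjusted p = 0.00205), and KMS34 below KMS18 (adjusted p = 0.00808). IRF9, a DNA-binding subunit of the complex on the ISRE, had ShMI and control intensities of 179.8 and 169 in KMS11, 147 and 151 in KMS18, 143 and 142 in KMS34 and 94.95 and 109 in OPM2. The 2 OPM2 values were the lowest of the 8, 1.4-fold under KMS34 (adjusted p = 0.0012), and the neighbours above it did not differ beyond their spread. IRF5, a target of Toll-like receptor signalling, had ShMI and control intensities of 132 and 151 in KMS34, 118 and 112 in KMS18, 82.6 and 72.8 in KMS11 and 74.5 and 66.3 in OPM2. KMS34 passed against KMS18 (adjusted p = 0.0339) and KMS18 against KMS11 (adjusted p = 0.000724). IRF7, which drives interferon alpha genes, had ShMI and control intensities of 95.3 and 93.6 in KMS18, 84.2 and 85.1 in KMS11, 67.7 and 69.1 in KMS34 and 66.4 and 65.1 in OPM2. KMS11 passed against KMS34 (adjusted p = 0.0102), and KMS34 and OPM2 did not differ beyond their spread (adjusted p = 0.617). IRF3, the constitutive factor that starts interferon beta transcription, had ShMI and control intensities of 277 and 360.2 in KMS11, 258 and 276 in OPM2, 236 and 232 in KMS34 and 206 and 207 in KMS18. No neighbouring lines passed for IRF3.

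IRF1, IRF9, IFI35 and GBP3 hold a match to TTCNNNGAA, the GAS core, which reads the same on both strands. The core was in 16 of 70 members (22.9%), against 8.77% of named genes with a window (7.66% of all windows). These stretches are shown because, with IFITM1, they are the members outside the TRIM family that hold it, and the match is in capitals.
IRF1: aacagcctgatTTCCCCGAAatgacggcac
IRF9: gaccacgtgatTTCTGGGAAaaggccctcc
IFI35: aaggcagggatTTCACGGAAatgaaagtgg
GBP3: tactgagtcacTTCCTTGAAagaagtactt
Their positions in GRCh38.p14 are chr5:132490879-132490908 (minus strand), chr14:24161191-24161220 (plus), chr17:43006751-43006780 (plus) and chr1:89022863-89022892 (minus). OPM2 was the lowest line in these 4 genes and KMS11 in IFITM1, where the GAS and ISRE cores overlap. OPM2 was also lowest in IRF2, IRF5, IRF7 and IRF8, which are not among the 16 members, and in 23.8% of all tested genes. A link between the core and the line order was not tested. The TRIM members with the core had their lowest level in various lines, for example TRIM2 in KMS18 and TRIM46 in KMS34.

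The 4 STAT genes each had another line order. STAT3, the interleukin 6 signal transducer, had ShMI and control intensities of 1176 and 1073 in KMS11, 778 and 829 in KMS34, 542 and 510.3 in OPM2 and 491 and 465 in KMS18. KMS11 stood 1.4-fold above KMS34 (limma pairwise, adjusted p = 0.000882) and KMS34 above OPM2 (adjusted p = 0.00015). STAT4, the interleukin 12 transducer of T and NK cells, had ShMI and control intensities of 201 and 208 in KMS34, 67.7 and 72.6 in KMS11, 50.3 and 41.1 in OPM2 and 39.5 and 44.7 in KMS18. Its span of 4.86-fold was the widest of the tested members, and KMS34 stood 2.92-fold above KMS11 (adjusted p = 2.99e-07), while KMS18 and part of the OPM2 values lay under the brightness limit. STAT5A, a transducer of cytokine and growth hormone receptors, had ShMI and control intensities of 109 and 107 in KMS34, 72.4 and 78.2 in KMS18, 65.98 and 69.03 in OPM2 and 55.8 and 52.9 in KMS11. Its close relative STAT5B had ShMI and control intensities of 150.1 and 157 in KMS18, 139 and 131 in KMS11, 117 and 127 in OPM2 and 95.8 and 106 in KMS34. KMS34 was the highest line for STAT5A (adjusted p = 0.000448 against KMS18) and the lowest for STAT5B (adjusted p = 0.0261 against OPM2).

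Of 10 TRIM genes of antiviral signalling 3 lay under the brightness limit, against 25% of all named genes. This grouping by role was made with earlier results of these data known. OPM2 was the lowest line in 5 of the 7 that were tested, against 23.8% of all tested genes. Over all 46 tested TRIM genes it was lowest in 15 (32.6%). All 7 passed the F test (against 75.7%). For 4 (TRIM14, TRIM21, TRIM25 and TRIM65) OPM2 also passed against the next line, against 9.61% of all tested genes and 17.4% of the tested TRIM genes. TRIM25, the ligase that modifies RIG-I, had ShMI and control intensities of 1293 and 1291 in KMS11, 905 and 859 in KMS34, 884 and 848 in KMS18 and 659.5 and 646 in OPM2. KMS11 stood 1.47-fold above KMS34 (limma pairwise, adjusted p = 0.000195) and OPM2 1.33-fold below KMS18 (adjusted p = 0.00182). TRIM14, a mitochondrial adaptor without a RING domain, had ShMI and control intensities of 315 and 299 in KMS11, 266 and 241 in KMS34, 163 and 165 in KMS18 and 129.5 and 103 in OPM2. All 3 steps of its order passed, with the largest p between KMS11 and KMS34 (adjusted p = 0.0355). TRIM21, the cytosolic antibody receptor, had ShMI and control intensities of 195 and 198 in KMS18, 183 and 156 in KMS11, 141 and 138 in KMS34 and 115 and 105 in OPM2. OPM2 lay 1.27-fold below KMS34 (adjusted p = 0.0092).

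TRIM38, a negative regulator of Toll-like receptor signalling, had ShMI and control intensities of 588 and 582 in KMS34, 503 and 541 in KMS18, 393 and 309 in OPM2 and 377 and 292 in KMS11. The upper pair, KMS34 and KMS18, stood above OPM2 (limma pairwise, adjusted p = 0.00152). TRIM26 had ShMI and control intensities of 360.5 and 457 in KMS18, 326 and 329 in KMS34, 314 and 272 in OPM2 and 296 and 287 in KMS11, with KMS18 above KMS34 (adjusted p = 0.0473). TRIM56 and TRIM65, ligases of nucleic acid sensing, were highest in KMS34 and spanned 1.59-fold and 1.7-fold. The retroviral restriction factor gene TRIM5 lay under the limit as a mean, with ShMI and control intensities of 83.5 and 81.5 in KMS18, 46.4 and 56.1 in KMS34, 37.1 and 33.99 in OPM2 and 28.1 and 30.1 in KMS11. It was above the limit on both KMS18 arrays and on the control array of KMS34, and had no test. TRIM22, an interferon-induced neighbour of TRIM5, lay at 36.6 to 41.5 on ShMI arrays and 36.1 to 41.4 on control arrays. The readthrough gene TRIM6-TRIM34 also lay under the limit as a mean and shares sequence with its parts.

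The TRIM genes with a PHD finger and a bromodomain act on chromatin. TRIM28, the KAP1 corepressor of zinc finger proteins, had ShMI and control intensities of 1498 and 1604 in KMS11, 1388 and 1506 in OPM2, 1070.2 and 1205 in KMS34 and 953 and 1112 in KMS18. KMS11 and OPM2 did not differ beyond their spread (limma pairwise, adjusted p = 0.371), and OPM2 stood above KMS34 (adjusted p = 0.00554). TRIM33, which acts in transforming growth factor beta signalling, had ShMI and control intensities of 432 and 479 in KMS34, 450.1 and 411 in KMS18, 252 and 252 in OPM2 and 202 and 188 in KMS11. KMS34 and KMS18 lay together above OPM2 (adjusted p = 3.23e-05). TRIM24, a nuclear receptor cofactor, had ShMI and control intensities of 404 and 419 in OPM2, 299 and 305 in KMS34, 243 and 264 in KMS11 and 199 and 195 in KMS18. It was highest in OPM2, 1.36-fold over KMS34 (adjusted p = 0.00113). TRIM66 did not pass the F test (adjusted p = 0.0665).

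**Figure D3:**
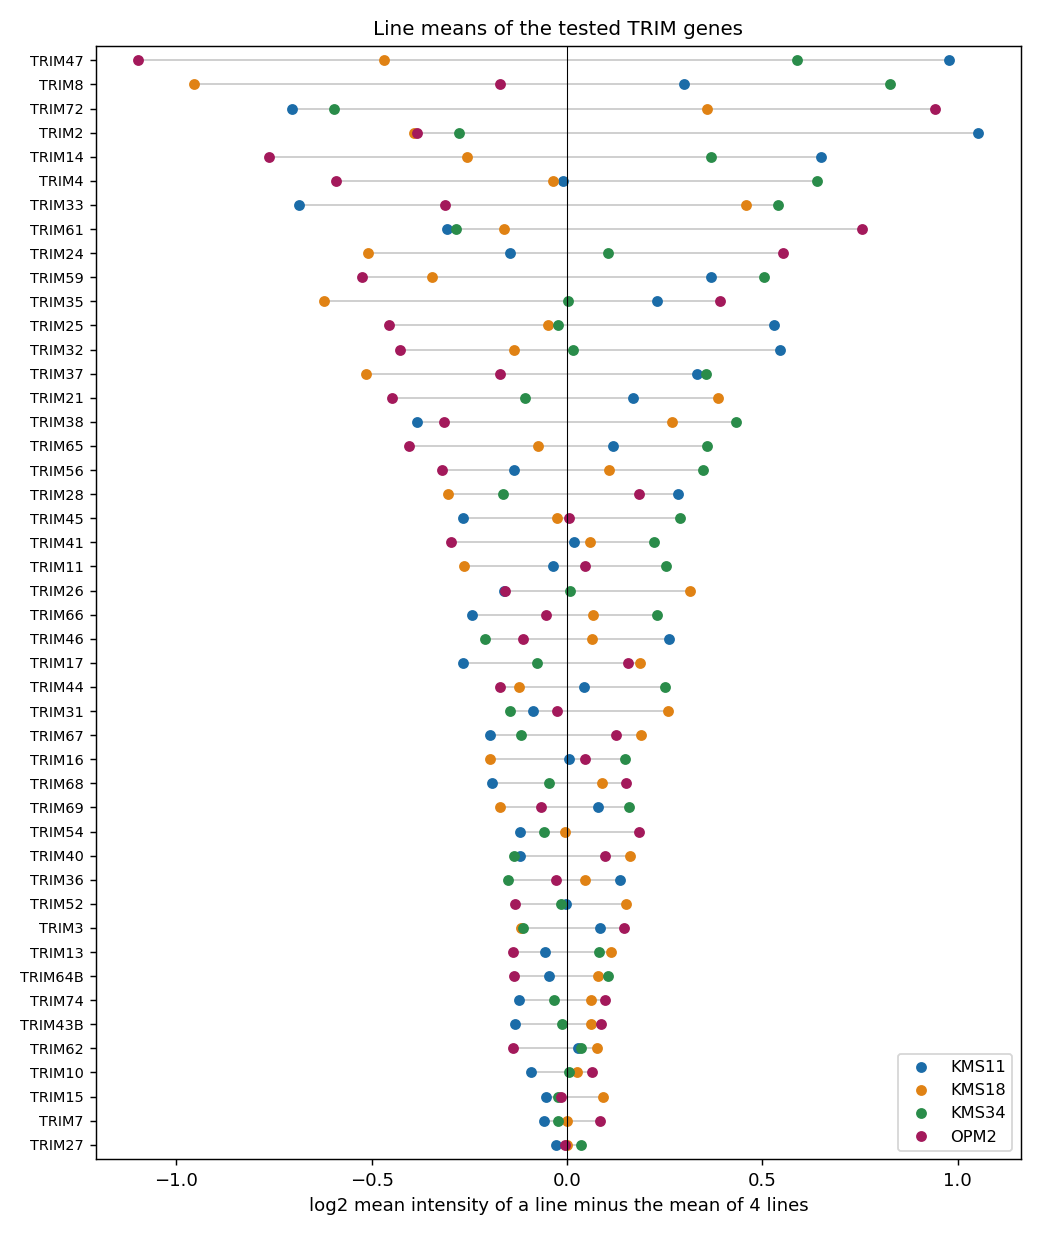
Line means of the 46 tested TRIM genes as the log2 mean intensity of a line minus the mean of the 4 lines, sorted by span with the widest on top; each coloured point is a line (mean of 1 ShMI and 1 control array). TRIM47, TRIM8 and TRIM72 span most, each with another line order, and TRIM27 spans least.

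Among the other TRIM genes the widest spans were those of TRIM47, TRIM8, TRIM72 and TRIM2. TRIM47 had ShMI and control intensities of 519 and 505 in KMS11, 357 and 427 in KMS34, 209 and 169 in KMS18 and 117 and 126 in OPM2, a span of 4.22-fold in which each step passed (the largest pairwise adjusted p was 0.0176, limma). TRIM8, a regulator of cytokine signalling that binds SOCS1, had ShMI and control intensities of 519 and 539.7 in KMS34, 384 and 350.0 in KMS11, 285 and 245 in OPM2 and 148 and 160.1 in KMS18. Each step of its order passed too, and KMS18 was lowest. TRIM72, a membrane repair gene known from muscle, had ShMI and control intensities of 268 and 279 in OPM2, 182 and 182 in KMS18, 89.2 and 99.5 in KMS34 and 79.6 and 95.97 in KMS11. OPM2 stood 1.5-fold above KMS18 (adjusted p = 0.000274), and KMS34 and KMS11 overlapped. TRIM2, an NHL-repeat ligase known from neurons, had ShMI and control intensities of 149 and 134 in KMS11, 57.6 and 54.7 in KMS34, 49.1 and 55.4 in OPM2 and 55.3 and 48.7 in KMS18. The KMS11 arrays stood 2.51-fold above KMS34 (adjusted p = 5.09e-07), and the other 3 lines lay near the brightness limit.

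TRIM32, another NHL-repeat ligase, was highest in KMS11 (1.44-fold over KMS34, limma pairwise, adjusted p = 0.00203), at 290.2 with ShMI and 218 in control. TRIM4 was highest in KMS34, with ShMI and control intensities of 309 and 284 in KMS34, 178 and 199.9 in KMS11, 184 and 187 in KMS18 and 111 and 143 in OPM2. TRIM37, a centrosome ligase, had ShMI and control intensities of 483 and 538 in KMS34, 489 and 516 in KMS11, 316 and 397 in OPM2 and 282 and 276 in KMS18. KMS34 and KMS11 lay together above OPM2 (adjusted p = 0.00128). TRIM61 was highest in OPM2 at 133 with ShMI and 125 in control, 1.89-fold over KMS18 (adjusted p = 1.37e-05). At the narrow end TRIM27, a ligase first found as a fusion partner of the RET kinase, had ShMI and control intensities of 426 and 396 in KMS34, 413 and 388 in KMS18, 389 and 409 in OPM2 and 391 and 394 in KMS11. It spanned 1.05-fold and did not pass the F test (adjusted p = 0.916), although its row is among the brighter ones, and TRIM7 spanned 1.1-fold (adjusted p = 0.631). Of the 46 tested TRIM genes 33 (71.7%) passed the F test, against 75.7% of all tested genes. Of the 10 TRIM genes of recent duplications, 7 lay under the limit, against 25% of all named genes. Of the 3 tested (TRIM43B, TRIM64B, TRIM74) 0 passed, and near-identical copies make the rows of these genes uncertain.

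Of the 95 members 7 had more than 1 row, with 5 to 8 rows each, among them TRIM10, TRIM15 and TRIM27, while TRIM26 had 1. HLA-F-AS1, the antisense RNA at HLA-F and the only HLA member, had ShMI and control intensities of 215 and 203 in KMS18, 182 and 185 in OPM2, 154 and 179.6 in KMS34 and 151 and 156 in KMS11 in its brightest row. Its 6 rows averaged 45.5 to 177, and 5 had the line order of the brightest. TRIM27's 8 rows averaged 199 to 400.4, and only 1 of them, the brightest itself, had the line order of the brightest. That count was 2 of 8 for TRIM10, 2 of 8 for TRIM40 and 4 of 6 for IFITM4P. It was 5 of 5 for TRIM31 and 8 of 8 for TRIM15. How far the HLA-F-AS1 row also measures its overlapping sense gene was not tested.

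Interferon genes outside the member families gave a wider picture of the same lines, from lists that hold no member. These lists too were chosen with earlier results of these data known. The shares below therefore describe the listed genes and are not an independent test. Of 62 listed genes 41 were in the table and 37 were tested, of which 36 passed the F test (97.3%, against 75.7% of all tested genes). OPM2 was the lowest line in 22 of the 37 (59.5%, against 23.8% of all tested genes), with a margin that passed in 13 (35.1%, against 9.61%). KMS11 was the highest in 20 (54.1%, against 27.8%), with a margin that passed in 11 (29.7%, against 12.5%). Like the members, the 37 were tested because they were bright on average over all arrays. A gene could thus pass the limit through its brighter lines, and the counts do not speak for the dimmer listed genes. In the list of other interferon-induced genes OPM2 was lowest in 10 of 15 and KMS11 highest in 9. The 10 tested interferon-induced members differed from this list. In them OPM2 was lowest in 2 (20%, against 23.8% of all tested genes) and KMS11 in 5 (50%, against 29.3%). KMS11 was highest in 3 of them (30%, against 27.8%). Among the sensors and adaptors OPM2 was lowest in 5 of 9, and among the antigen presentation genes in 4 of 4. The receptor and kinase list (5 tested) had OPM2 lowest in 2, and the negative regulators (4 tested) in 1.

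IFIH1, the MDA5 sensor of long double-stranded RNA, had ShMI and control intensities of 284 and 309.5 in KMS11, 249 and 255 in KMS18, 104 and 96.2 in KMS34 and 35.8 and 36.4 in OPM2. The OPM2 values lay under the brightness limit, and OPM2 passed against KMS34 (limma pairwise, adjusted p = 7.99e-08). HERC5, the ligase that attaches ISG15, had ShMI and control intensities of 347 and 390.1 in KMS11, 66.2 and 68.9 in KMS34, 64.4 and 61.3 in KMS18 and 45.1 and 35.2 in OPM2. KMS11 stood 5.45-fold above KMS34 (adjusted p = 7.99e-09). SP110, a nuclear body protein gene, had ShMI and control intensities of 195 and 169 in KMS11, 186 and 173 in KMS18, 129 and 131 in KMS34 and 44.95 and 40.1 in OPM2. DTX3L, a ligase that works with PARP9, had ShMI and control intensities of 293 and 309 in KMS18, 246 and 199.5 in KMS11, 201 and 177 in KMS34 and 76.4 and 63.9 in OPM2. For both of them OPM2 passed against KMS34 (adjusted p = 3.58e-08 for SP110 and 3.05e-07 for DTX3L). The OPM2 values of HERC5 and SP110 lay under the brightness limit, as for IFIH1, and those of DTX3L above it. TAPBP, the tapasin that loads peptides on HLA class I, had ShMI and control intensities of 1128 and 1151 in KMS18, 1075 and 1075 in KMS34, 974 and 785 in KMS11 and 347 and 268 in OPM2. OPM2 lay 2.87-fold below KMS11 (adjusted p = 3.62e-07).

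ERAP2, a peptide-trimming aminopeptidase, stood out in KMS18, with ShMI and control intensities of 545 and 513 in KMS18, 90.2 and 79.7 in KMS11, 80.95 and 73.2 in KMS34 and 72.5 and 63.2 in OPM2. The step from KMS18 to KMS11 was 6.24-fold (limma pairwise, adjusted p = 3.45e-10). ERAP1, its partner, was also highest in KMS18 and lowest in OPM2 and spanned 2.32-fold. TLR9, the receptor for unmethylated DNA, was highest in KMS34 (386 with ShMI, 444 in control, 3.41-fold over KMS11), and the adaptor gene MYD88 in KMS18 (1.44-fold over KMS34). JAK2 was highest in KMS18 (1.45-fold over KMS34), while both interferon gamma receptor chains, IFNGR1 and IFNGR2, were highest in KMS11. Of the feedback inhibitors, SOCS3 was highest in KMS11 (1.65-fold over KMS34), CISH in KMS34 and SOCS2 in OPM2.

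**Figure D4:**
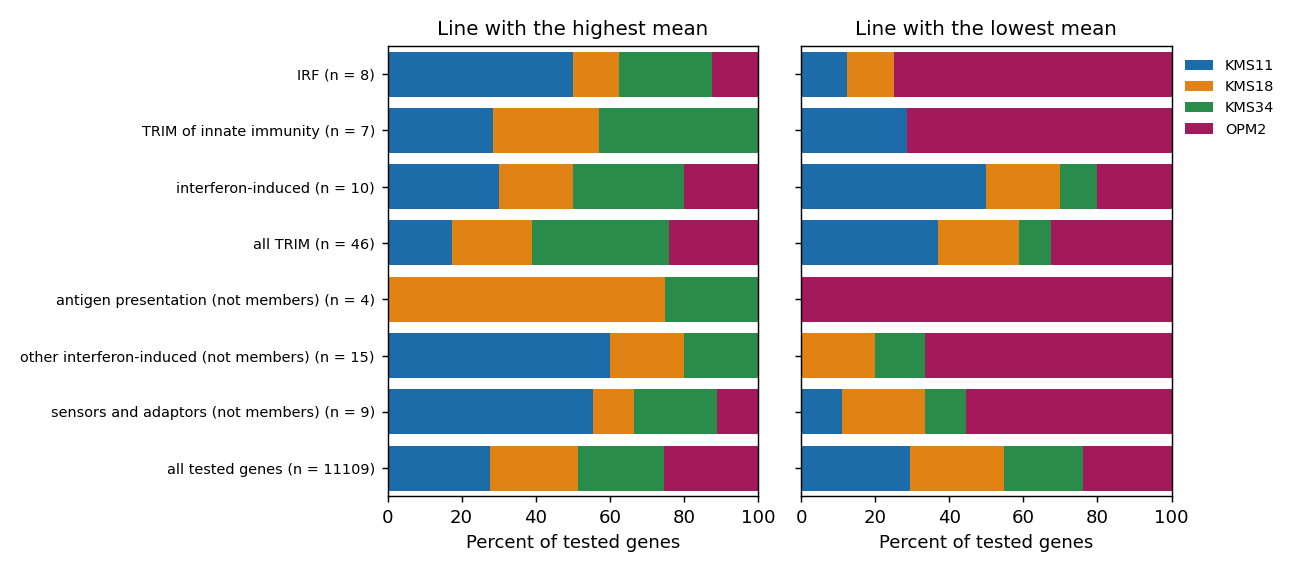
Percent of tested genes (horizontal axis) whose highest (left) and lowest (right) line mean falls in each line, for member groups, for 3 lists outside the members and for all tested genes. OPM2 takes 6 of 8 lowest places among the IRF genes, 10 of 15 among the other interferon-induced genes and 2 of 10 among the interferon-induced members. Its share among all tested genes is 23.8%.

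The knockdown was compared within lines. Of the 72 tested members 0 passed limma's test with the cell line as a block, in either direction, against 0.018% of all tested genes called higher with ShMI and 0.099% called lower. At an unadjusted p under 0.05 there were 4 members (5.56%), against 8.41% of all tested genes. The sign was the same in 4 lines for 6 members (8.33%), against 17.0% of all tested genes. Mean differences were above 0 in 37 members and below 0 in 35, and the median was 0.0015 log2 units, against -0.0033 over all tested genes. The standard errors of the members' differences were 0.060 to 0.115 log2 units.

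GBP3 had the largest mean difference of the members. Its intensities were 136 with ShMI and 84.4 in control in KMS11, 126 and 102 in KMS18, 158 and 114 in KMS34 and 71.9 and 73.6 in OPM2. It was thus higher with ShMI in 3 lines and about equal in OPM2, where it was lowest. The mean log2 difference was 0.36 with a standard error of 0.097 (limma, unadjusted p = 0.00328, adjusted p = 0.309). IFIT5 was higher with ShMI in 4 of 4 lines, by 0.35 (KMS11), 0.12 (KMS18), 0.17 (KMS34) and 0.07 (OPM2) on the log2 scale, with a mean of 0.18 (standard error 0.067, unadjusted p = 0.022, adjusted p = 0.527). TRIM28 was lower with ShMI in 4 of 4 lines, with log2 differences of -0.10 (KMS11), -0.22 (KMS18), -0.17 (KMS34) and -0.12 (OPM2), a mean of -0.15 (standard error 0.062, unadjusted p = 0.0292, adjusted p = 0.565). The fourth was TRIM43B, named after its values were seen, at 0.19 (adjusted p = 0.505), a gene with near-identical copies.

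**Figure D5:**
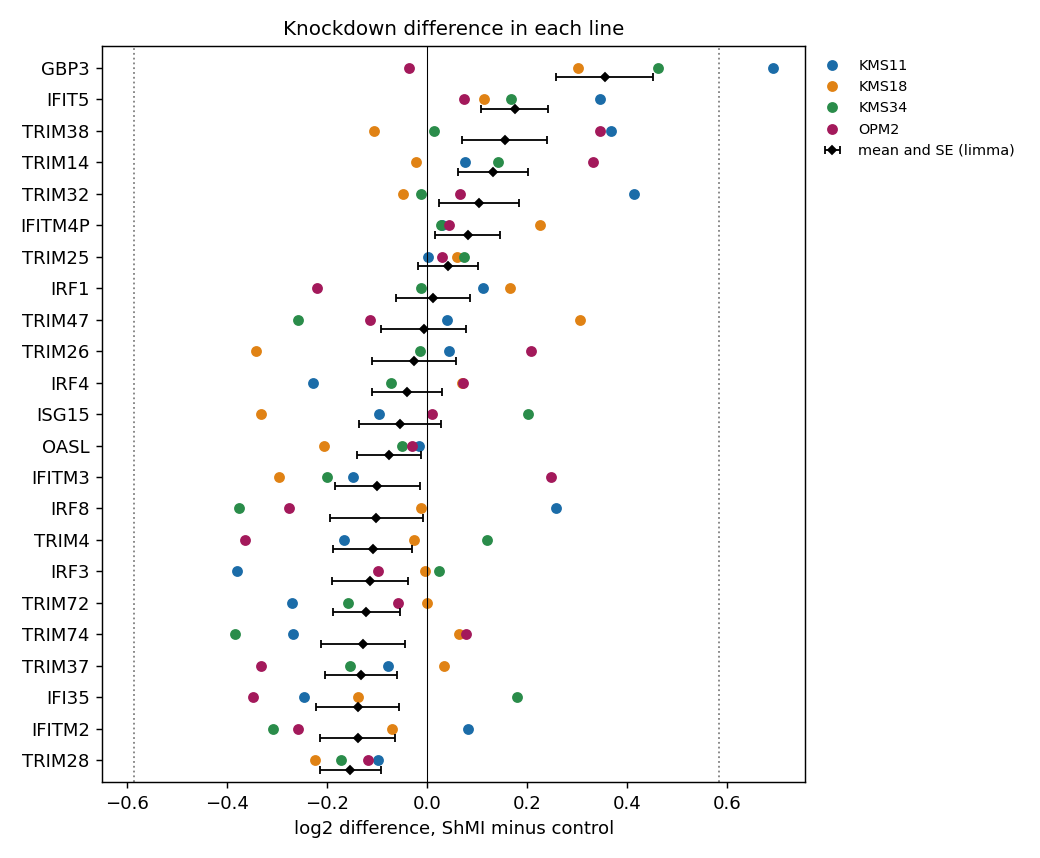
Log2 difference, ShMI minus control, in each line (coloured points) for the 23 members named for the knockdown, sorted by the mean; black diamonds with bars are limma means with their standard errors and dotted lines mark 1.5-fold. The points of most genes lie on both sides of 0, while those of IFIT5 lie above it and those of TRIM28 below it.

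The other members with 1 sign in 4 lines had small differences. OASL had a mean log2 difference of -0.08 (limma, adjusted p = 0.788), TRIM72 of -0.12 (0.67), TRIM25 of 0.04 (0.884) and the pseudogene IFITM4P of 0.08 (0.772). In KMS11, with 1 array per condition and no test, 2 of 72 members were at least 1.5-fold higher or lower with ShMI, against 0.513% of all tested genes. These were GBP3 and TRIM16 (TRIM16 was named after its values were seen), with log2 differences of 0.69 for GBP3 and 0.59 for TRIM16. No member reached 1.5-fold in KMS18, KMS34 or OPM2, against 0.126%, 0.252% and 0.189% of all tested genes.

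Within single lines, and without a test, the signalling genes had differences of both signs. IRF4 had log2 differences of -0.23 (KMS11), 0.07 (KMS18), -0.07 (KMS34) and 0.07 (OPM2). IRF3 had a log2 difference of -0.38 in KMS11 and IRF8 one of -0.38 in KMS34, where IFITM2 had -0.31. ISG15 had -0.33 in KMS18 and 0.20 in KMS34, and IFI35 had 0.18 in KMS34 and -0.35 in OPM2. IFITM3 had -0.30 in KMS18 and 0.25 in OPM2. Higher with ShMI were TRIM32 (0.41) and TRIM38 (0.37) in KMS11, TRIM47 (0.31) and IRF1 (0.17) in KMS18, and TRIM38 (0.35) and TRIM14 (0.33) in OPM2. Lower were TRIM26 (-0.34) in KMS18, TRIM74 (-0.38) in KMS34 and TRIM4 (-0.36) and TRIM37 (-0.33) in OPM2.

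Outside the members, 0 of the 37 tested pathway genes passed for the knockdown, and 5 had an unadjusted p under 0.05 (13.5%, against 8.41% of all tested genes), each with a mean above 0. The RNA sensor gene RIGI had ShMI and control intensities of 102 and 82.8 in KMS11, 74.5 and 60.8 in KMS34, 67.9 and 63.001 in KMS18 and 51.2 and 47.5 in OPM2, higher with ShMI in 4 of 4 lines (log2 difference 0.20, standard error 0.066, limma adjusted p = 0.44). EIF2AK2, the PKR kinase activated by double-stranded RNA, had ShMI and control intensities of 539.8 and 511 in KMS34, 563 and 474 in KMS11, 484 and 452 in KMS18 and 214 and 170.2 in OPM2, also higher in 4 of 4 lines (0.19, standard error 0.067, adjusted p = 0.487). ERAP2 had a log2 difference of 0.15 (adjusted p = 0.562) and SAMD9L, an antiviral and growth-restraining gene, of 0.17 (0.593). The fifth was DTX3L at 0.17 (0.593), named here after its values were seen. In the list of other interferon-induced genes the median log2 difference was 0.199 for KMS11, against -0.0021 over all tested genes. It was 0.037 for KMS18 (against 0.0030), 0.045 for KMS34 (against -0.012) and 0.080 for OPM2 (against 0.0024). The 10 tested interferon-induced members had medians below 0, at -0.028 (KMS11), -0.104 (KMS18), -0.041 (KMS34) and -0.0093 (OPM2). Of their mean differences 7 lay below 0 and 3 above. Each line had 1 array per condition, so these medians were not tested.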

How the data were processed

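Expression was measured on 8 arrays, 1 ShMI and 1 control array in each of 4 cell lines. The authors deposited 1 linear intensity per array and row, and per the series text used GeneSpring (Agilent); background correction, normalization and row filters are not given in the sources used here. The intensity ranged from 18.9 to 13166 over the arrays and array medians were 49.3 to 53.5. Of 44629 rows, 15835 had 1 symbol in the platform annotation and 28794 had none; the 137 member rows gave 95 genes, each taken at its brightest row, and all 95 matched RefSeq by gene ID without a change of symbol. Log2 values were taken, genes whose mean lay under the 25th percentile were left out, and limma 3.58.1 in R 4.3.3 was fitted across all 11109 genes (lmFit, eBayes; line and knockdown as terms, so that the line is the block of the knockdown) with Benjamini-Hochberg adjustment over all genes. The pairing follows the labels' cell lines; deviations from the condition mean correlated at 0.925 to 0.932 within a line and at -0.135 at most between lines. The fits were tested on simulated data. The 4 lines stand as replicates in the knockdown test, and p-values between lines measure only the spread of these arrays; their number limits the precision.

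The members, roles and lists were chosen with earlier results of these data known. The text names, per family, the 5 widest and 2 narrowest spans between lines, up to 2 members per direction with 1 sign in 4 lines, the 3 members furthest up and down in each line among those whose brighter array there exceeded the median of tested genes (intensity 121), and 55 genes regardless of values, of which 31 were in the table; per outside list it names the 3 widest and up to 2 per direction for the knockdown. TRIM24, TRIM33, TRIM56, TRIM61, TRIM65 and TRIM66 and the single mentions of other TRIM, GBP and IFIT genes were added after their values were seen.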

Additional observations from a re-analysis of the deposited data

Results flagged for a closer look

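The ShMI minus control difference was examined over the 4 lines in 42 named members, to find a line far from the other 3. In 1 of them, the pseudogene IFITM4P, the log2 difference in KMS18 was 0.2258, while the other lines lay between 0.027 and 0.044. Chance singles out about 1 in 20 such sets of values. IFITM4P had 6 rows, whose mean differences ran from -0.0049 to 0.094.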

How the results depend on the processing

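Results were recomputed with quantile normalization, with centring on array medians, with no filter or one at the 50th percentile, the mean of a gene's rows, eBayes with trend and robust, without each line in turn and, for the knockdown, with no replicate block. In each of them 0 members passed for the knockdown, with 0 at an unadjusted p under 0.05 without the replicate block, where 0 of all genes passed, and 2 to 6 members otherwise. The members passing the F test were 56 of 72 in the main fit (77.8%, all genes 75.7%). They were 44 of 48 (91.7%, all genes 88.1%) with the filter at the 50th percentile. With no filter they were 65 of 95 (68.4%, all genes 59.5%). Otherwise they were 50 to 59 (68.5% to 81.9%, all genes 64.4% to 81.5%). In the main fit 20 members spanned at least 2-fold (27.8%, all genes 18.8%), a count added after the data were seen. Of the members' pairwise line contrasts 222 passed over 6 pairs. Per pair these were 45.8% to 55.6% of members, against 40.2% to 55.3% of all tested genes. Over the 3 pairs that remain without 1 line 105 to 119 passed, a count for which the share of all genes was not taken. In KMS11, centring left 1 member at 1.5-fold. OPM2 stayed the lowest line for 6 of 8 IRF genes under quantile normalization, centring and the mean of rows, and for 5 of 7 with the higher limit. Over all 72 members OPM2 was lowest in 28 under quantile normalization and 21 with centring, and over the 37 pathway genes in 20 and 21. Of all 11109 tested genes it was lowest in 2642 and 2232 in these settings. KMS11 was highest in 17 of the 37 pathway genes in both, against 2765 and 2358 of all tested genes. It was lowest in 22 and 32 of the 72 members, against 3189 and 4377 of all tested genes. The difference of TRIM47 turned to 0.002578 under quantile normalization and ran from -0.1098 to 0.07807 when a line was left out, that of IRF1 from -0.03983 to 0.08891, that of IRF4 from -0.07645 to 0.0238, that of ISG15 from -0.1387 to 0.03941 and that of TRIM26 from -0.104 to 0.07956; none of these was called. The span of IFITM5, also not called, turned to -0.008629 under quantile normalization. The cause was not tested. Among the 57 spans and 29 knockdown differences recomputed, none changed its side of the threshold; those of the genes added after their values were seen were not recomputed, apart from TRIM43B and DTX3L. Uncalled differences that moved by over 1.5 times with 1 line left out were those of SAMD9L (0.08851 without KMS34), OASL (-0.03174 without KMS18), IFITM4P (0.03389 without KMS18) and TRIM72 (-0.07197 without KMS11), among others. With 4 lines and no detection calls, small differences and dim genes cannot be resolved.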
